A study of Mus musculus with 8 samples.

Results

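The genes described here encode the subunits of the proteasome. They were chosen by name from the list of 33027 genes of a single-cell RNA-seq dataset of mouse lung: every symbol made of Psma, Psmb, Psmc or Psmd and a number, except Psmb8, Psmb9 and Psmb10. The pattern matched 39 symbols and left 36 members. These were 8 genes of the 20S alpha ring, 8 of the 20S beta ring, 6 ATPases of the 19S base, 11 other 19S subunits and 3 chaperones that assist assembly of the 19S base (Psmd5, Psmd9 and Psmd10).

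The proteasome is the large protease that degrades proteins tagged with ubiquitin. Its barrel-shaped core, the 20S particle, is a stack of alpha and beta rings, and the beta ring carries the catalytic subunits encoded by Psmb5, Psmb6 and Psmb7. The regulatory 19S particle caps the core: its ATPases unfold substrates, and its other subunits bind and remove ubiquitin. In immune cells and under interferon the catalytic subunits can be exchanged for Psmb8, Psmb9 and Psmb10, which form the immunoproteasome. Transcription factor Nrf1 (gene Nfe2l1) raises the subunit genes together when proteasome activity falls short, through antioxidant response elements in their promoters.

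The mice were Sftpc-CreERT2-mTmG reporters on a C57BL/6 background, in which tamoxifen, given to all groups at 8 to 10 weeks of age, labels the cells that use the Sftpc promoter, mainly AT2 cells. Littermates then breathed cigarette smoke (CS) for 6 hours a day on 5 days a week over 10 months, or room air (RA), with 4 mice in each group. Dissociated lung cells were sorted on CD45 and mixed back to 10% CD45-positive and 90% CD45-negative cells, so the shares of cell types reflect that mixing. Each mouse gave 1 library, and each sequencing lane held 1 CS and 1 RA library. CS mice are numbered 1 to 4 and RA mice 1 to 4 below.

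After multiplets and 7 cells of a cell cycle label were removed, 40074 cells remained, 20330 from CS and 19744 from RA mice. The total of corrected transcripts per library ran from 33145096 to 48490570 in CS and from 31094695 to 52753531 in RA mice. Xist and Y-linked transcripts went against the labelled sex in 4 of 4 CS libraries and in 0 of 4 RA libraries, so sex is not used in the reported fits. By these transcripts CS mice 1 and 2 and RA mice 1 and 2 were female, and the other mice male. The labels give CS mice 1 and 2 as male and CS mice 3 and 4 as female. By either, each group held as many females as males. The mismatch lies in 1 exposure group, no measure used here checks the exposure labels, and every comparison of CS with RA mice rests on those labels. At most 14 cell barcodes were shared by any pair of libraries. The markers of most cell types were highest in the type that carries the name, among them Foxj1 in ciliated cells, Marco in alveolar macrophages and S100a8 in neutrophil granulocytes. The label for type B capillary cells had the highest level of Gpihbp1 and Plvap, and these cells are called gCap cells (general capillary endothelial cells), although the third marker of the list, Ptprb, was highest in arterial endothelial cells (30.1 transcripts per 10,000) and second in gCap cells (26.2). The type A label had the highest level of Car4, Ednrb and Apln, and these are called aerocytes. Scgb3a2 and Cyp2f2 were higher in goblet and basal cells than in club cells, Lyve1 was higher in arterial than in lymphatic endothelial cells (EC), and Kcnj8 was higher in peribronchial fibroblasts than in pericytes. A level below is the mean over the cells of a type of transcripts per 10,000 transcripts of the cell, taken in each mouse that had at least 20 cells of that type.

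The promoters of the members are the place where coordinated control of these genes is known to act. A promoter entry in RefSeq (build GRCm38.p6) was found for 29 of the 36 members. The core of the antioxidant response element, TGACNNNGC on either strand, lay in the 250 bases before the start of 5 of the 29 (17.2%), against 10.1% of 27025 promoters in all. These were Psmb5, Psmb6, Psmc6, Psmd9 and Psmd12. A CCAAT box was in 12 of 29 (41.4%) against 34.5% of all promoters, and the heat shock element core GAANNTTC was in 1 of 29 (3.45%) against 6.78%. No member promoter had matches of CCAAT that overlapped those of the other motifs (0 promoters). The sequences below, 5′ to 3′ on the strand of the gene, are those of the catalytic subunits Psmb5 and Psmb6 and of 4 members past the threshold in the comparison of CS with RA mice, with motif matches in capitals. They lie at chr14:54617996-54618245 and chr11:70525107-70525356, and at chr5:21785025-21785274, chr7:28050093-28050342, chr11:106255935-106256184 and chr7:29180674-29180923 for the last 4. Psmb5, Psmc4 and Psmd8 are on the minus strand and the other 3 on the plus strand.
Psmb5: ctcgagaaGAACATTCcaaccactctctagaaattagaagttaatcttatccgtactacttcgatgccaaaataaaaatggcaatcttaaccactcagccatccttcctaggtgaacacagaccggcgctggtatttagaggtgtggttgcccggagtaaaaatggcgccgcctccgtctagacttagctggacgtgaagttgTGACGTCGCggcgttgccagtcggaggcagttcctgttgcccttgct
Psmb6: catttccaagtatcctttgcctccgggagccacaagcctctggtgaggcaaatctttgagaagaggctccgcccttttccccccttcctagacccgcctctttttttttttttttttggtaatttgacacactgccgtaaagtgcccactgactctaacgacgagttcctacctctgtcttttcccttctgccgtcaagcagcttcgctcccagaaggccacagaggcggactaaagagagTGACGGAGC
Psmc2: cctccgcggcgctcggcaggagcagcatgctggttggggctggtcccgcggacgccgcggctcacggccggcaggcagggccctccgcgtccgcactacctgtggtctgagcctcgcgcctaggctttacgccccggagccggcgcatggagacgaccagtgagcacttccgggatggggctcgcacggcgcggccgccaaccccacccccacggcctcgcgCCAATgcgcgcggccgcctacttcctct
Psmc4: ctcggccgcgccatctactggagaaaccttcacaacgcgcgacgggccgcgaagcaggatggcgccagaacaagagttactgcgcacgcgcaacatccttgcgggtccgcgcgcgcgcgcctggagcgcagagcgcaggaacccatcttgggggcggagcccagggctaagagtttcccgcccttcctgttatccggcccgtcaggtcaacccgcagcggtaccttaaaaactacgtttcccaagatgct
Psmc5: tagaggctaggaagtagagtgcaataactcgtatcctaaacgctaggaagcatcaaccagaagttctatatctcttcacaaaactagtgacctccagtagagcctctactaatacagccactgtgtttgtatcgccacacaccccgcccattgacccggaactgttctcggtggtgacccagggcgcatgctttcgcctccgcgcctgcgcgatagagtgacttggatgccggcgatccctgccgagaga
Psmd8: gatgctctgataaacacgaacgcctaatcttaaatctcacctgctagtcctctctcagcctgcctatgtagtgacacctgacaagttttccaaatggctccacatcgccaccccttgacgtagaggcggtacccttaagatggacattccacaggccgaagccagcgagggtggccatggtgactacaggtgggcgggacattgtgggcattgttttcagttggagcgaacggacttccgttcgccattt
The capitals mark a heat shock core and then an antioxidant core in Psmb5, an antioxidant core that ends at the last base before the start in Psmb6, and a CCAAT box in Psmc2. Psmc4, Psmc5 and Psmd8 had none of the 3 letter patterns in this window. A match is a run of letters and not evidence of binding.

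Proteasome transcripts were found throughout the lung, at levels that differed between cell types. Over all mice of both groups, the summed level of the 36 members was highest in alveolar macrophages, at 40.5 ± 4.71 transcripts per 10,000 (SD, n = 8 mice), followed by ciliated cells at 39.8 ± 2.55 and AT1 cells, the flat cells of gas exchange, at 38.3 ± 2.94. This order differed between the groups. In RA mice the means were 40.4 in ciliated cells, 39.2 in AT1 cells, 38.5 in aerocytes and 37.5 in alveolar macrophages. In CS mice they were, in the same order, 39.2, 37.3, 32.0 and 43.4. Most endothelial and fibroblast types lay near 30, with gCap cells at 30.5 ± 2.73 and alveolar fibroblasts at 29.7 ± 4.26. AT2 cells, the surfactant-secreting cells, had 28.0 ± 1.07 and club cells 22.4 ± 1.59. The lowest sums were in cells labelled mast, at 13.7 ± 0.972 (n = 7), and neutrophil granulocytes, at 10.7 ± 0.407. Of the 21 gaps between neighbours in this order of 22 types, 2 exceeded the SD of both neighbours: that from club cells to cells labelled mast (8.70) and that from there to neutrophil granulocytes (3.05). The order among the first 20 types is therefore not resolved step by step. A sum is a share of the RNA of a cell and not an amount per cell.

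**Figure D1:**
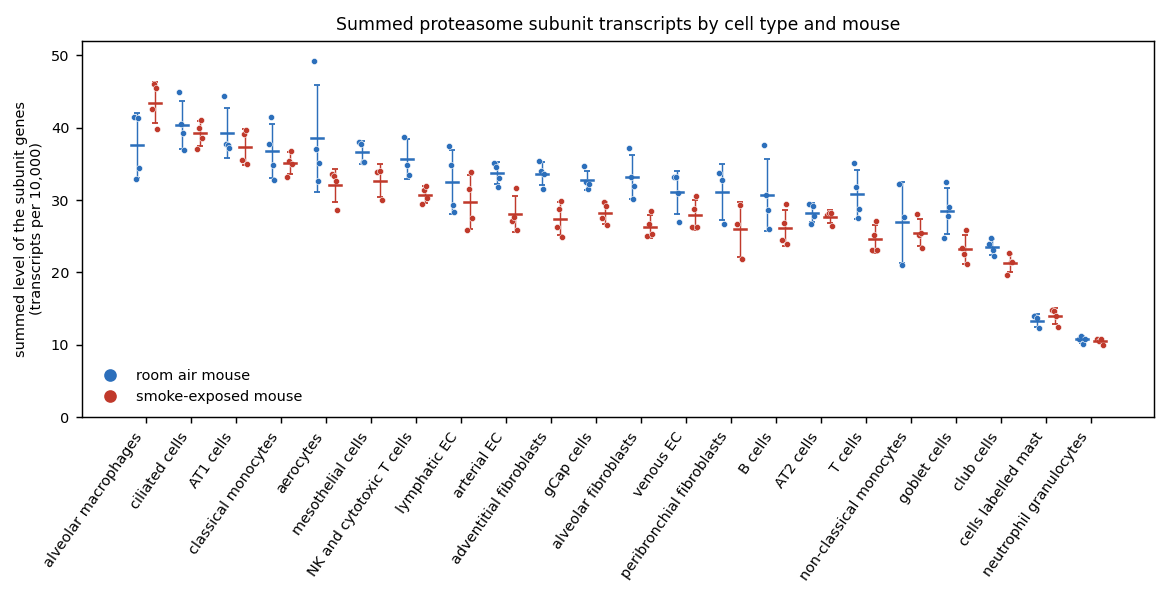
Summed level of the 36 subunit genes (y axis, transcripts per 10,000) in 22 cell types (x axis, ordered by their mean); each point is a mouse, horizontal lines are group means and whiskers the SD. CS mice lie wholly below RA mice in 7 types, and cells labelled mast and neutrophil granulocytes lie well below the rest.

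Each type was then compared with the mean of the other types within mice, in the 17 types with at least 20 cells in all 8 mice. A member passed an adjusted p of 0.05 as higher in 178 of the member and type pairs and as lower in 180, by limma with Benjamini-Hochberg adjustment over all genes. Over all genes, 26.2% of gene and type pairs were higher and 46.6% lower. In ciliated cells 27 of 34 members were higher (background 37.5%) and 0 were lower, with a median log2 difference of 0.17. AT1 cells had 24 higher (background 30.0%), alveolar macrophages 23 (26.7%) and aerocytes 20 (31.6%), all of 34. In neutrophil granulocytes 33 of 34 were lower (background 77.6%), with a median log2 difference of -0.53; Psmd10, also known as gankyrin, did not pass there (-0.05, adjusted p = 0.0635, limma). Club cells had 27 lower (background 59.7%) and T cells 21 (48.2%), while goblet cells had 19 (66.3%), a smaller share than that of all genes. AT2 cells had 6 higher (19.7%) and 17 lower (52.3%).

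Single members had their own peaks. Of the 36 members, 10 were highest in ciliated cells, 6 each in alveolar macrophages and aerocytes, and 27 were lowest in neutrophil granulocytes. Psmb6, the caspase-like catalytic subunit, was at 2.66 ± 0.349 transcripts per 10,000 in ciliated cells and at 0.267 ± 0.0701 in neutrophil granulocytes (n = 8 each). The assembly chaperones Psmd9 and Psmd10 were also highest in ciliated cells, at 1.29 ± 0.111 and 0.627 ± 0.0916, where their medians over the 22 types were 0.370 and 0.156. Psma7, an alpha ring subunit, was highest in classical monocytes, at 4.74 ± 0.631, and lowest in neutrophil granulocytes, at 0.741 ± 0.152. Psmc1 and Psmc3, ATPases of the base, were highest in AT1 cells, at 1.26 ± 0.189 and 1.48 ± 0.190. Psma8, the testis form of an alpha subunit, was found in 350 of 40074 cells (0.873%) and Psmb11, the thymus beta subunit, in 111 (0.277%). Neither reached the filter of 10% of cells in a group in any type, so no comparison was made for them.

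The levels of the members in RA mice were also compared with each other across the 17 types. The median Pearson correlation of log2 levels over 561 pairs of 34 members was 0.56, and 557 pairs were positive. Without neutrophil granulocytes the median was 0.31 and 462 pairs were positive. Over all pairs of 14427 genes, which include many genes of single cell types and are not matched to the members in level, the median was 0.04 and 54.4% were positive, and without neutrophil granulocytes 0.02 and 51.6%. The types share libraries and differ in depth. The summed level of the members had a correlation of 0.19 with the log2 of the median transcripts per cell, and of -0.39 without neutrophil granulocytes. Outside the lists, the genes most like the summed level over these 17 types were Idh3b, an enzyme subunit of the citric acid cycle (r = 0.92), Uqcrc1, of respiratory complex III (0.92), Grpel1, a partner of the mitochondrial Hsp70 chaperone (0.91), Ndufa9, of complex I (0.90), and Eif3c, a translation initiation factor subunit (0.90). The summed transcripts of the 20S members were 1.07 ± 0.0523 times those of the 19S subunits in aerocytes and 1.996 ± 0.170 times in classical monocytes, the lowest and the highest of 22 types.

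The balance between the catalytic subunits and their inducible counterparts separated the cell types more widely. Psmb8, Psmb9 and Psmb10 made up 68.5% ± 5.15 (SD, n = 8) of the transcripts of the 6 catalytic subunits in gCap cells, 66.6% ± 3.23 in classical monocytes and 65.6% ± 3.62 in T cells. The share was 34.7% ± 4.78 in AT2 cells, 30.9% ± 3.59 in alveolar fibroblasts, 23.2% ± 3.99 in AT1 cells and 8.94% ± 2.80 in ciliated cells. Since 3′ counts of different genes may be captured unequally, the share is read across types and not as an absolute ratio. Against the mean of the other types, ciliated cells were higher in Psmb5 (log2 difference 0.61 ± 0.04 SE, adjusted p = 3.34e-25) and Psmb6 (0.72 ± 0.04, adjusted p = 3.23e-32) and lower in Psmb8 (-0.87 ± 0.06, adjusted p = 1.27e-26) by limma. In gCap cells Psmb5 was lower (-0.17 ± 0.04, adjusted p = 0.000364), and Psmb9 (0.81 ± 0.06, adjusted p = 2.25e-23) and Psmb10 (0.74 ± 0.05, adjusted p = 9.18e-29) were higher. Alveolar macrophages were higher in Psmb5, Psmb6 and Psmb7 and also in Psmb8 (0.25) and Psmb10 (0.50).

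**Figure D2:**
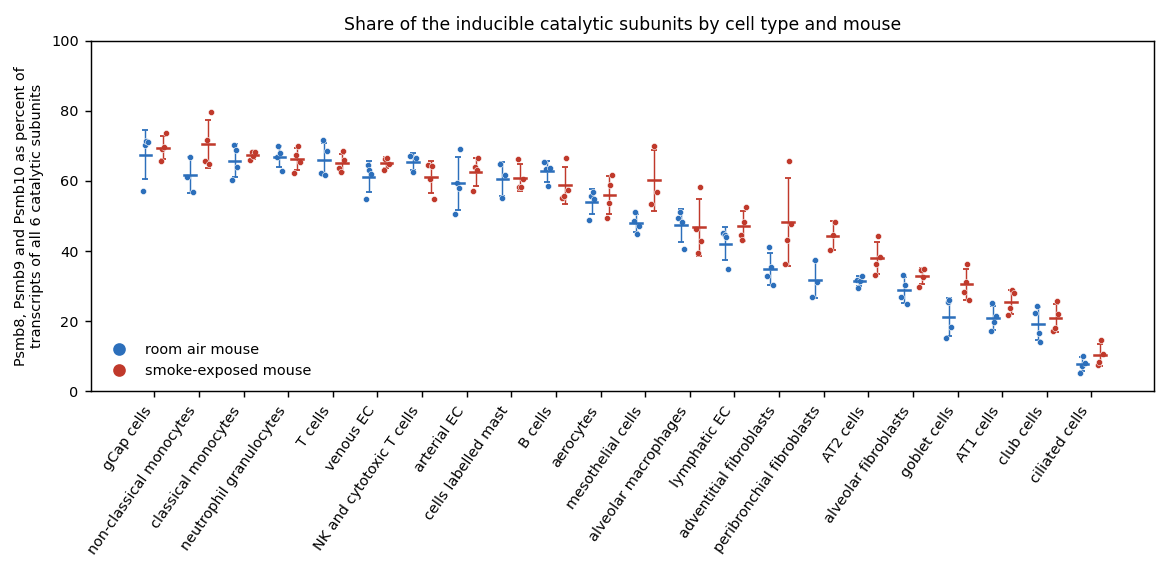
Transcripts of Psmb8, Psmb9 and Psmb10 as a percent of those of these 3 genes plus Psmb5, Psmb6 and Psmb7 (y axis) in 22 cell types (x axis, ordered by their mean); points are mice, horizontal lines group means and whiskers SD. The share runs from 68.5% in gCap cells to 8.94% in ciliated cells, and the range of types is wide beside the distance between CS and RA means in most of them.

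The exposure comparison asked which subunit genes differ between CS and RA mice in each cell type. Subunit transcripts were mostly somewhat lower in CS mice, and few differences passed the threshold of a single gene. Of 702 member and type pairs tested in 22 types, 6 were lower in CS mice at an adjusted p under 0.05 (0.855%, against 0.518% of all gene and type pairs) and 0 were higher (background 0.712%). At an unadjusted p under 0.05, 117 pairs were lower (16.7%, against 6.3% of all pairs) and 8 were higher (against 8.92%). The difference was negative in 537 pairs (76.5%), where it was negative in 45.8% of all pairs. Every CS mouse lay below every RA mouse in 97 pairs (13.8%, against 4.67%) and above in 7 (against 6.01%). The median difference of the members was negative in 20 of 22 types, and it was positive in alveolar macrophages (0.07) and cells labelled mast (0.02), while the median of all genes was within 0.03 of 0 in every type. The 22 types come from the same 8 mice, so these pairs are not independent of each other. The share of all genes called differed by type, and the members' counts are read against it. Beside the types described below, the share called lower was 0.992% in AT1, 1.91% in ciliated, 0.121% in club and 0.0253% in goblet cells and 0.0649% in venous EC; the share called higher was 1.39% in AT1, 2.72% in ciliated, 0.0778% in club and 0.152% in goblet cells and 0.0649% in venous EC. No member was called in these 5 types by limma (0 pairs), where, in the same order, 6, 3, 3, 9 and 4 members had an unadjusted p under 0.05 as lower, against 8.19%, 9.98%, 3.21%, 1.74% and 5.33% of all genes.

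The calls depended on single mice, on the filter on genes and on how lanes were treated. With no filter on genes 0 pairs passed. With lane as a block, 0 pairs passed. In each of the 6 called pairs every CS mouse lay below every RA mouse, so it was lower in 4 of 4 lanes under any pairing. With a mouse left out, the passing pairs of any member and type were counted. There were 0 without CS mouse 1 or CS mouse 4, 1 without CS mouse 3 or RA mouse 2 and 2 without RA mouse 1. There were 3 without RA mouse 4, 5 without CS mouse 2 and 6 without RA mouse 3. These pairs were not always among the 6 called: without RA mouse 3, 1 of them was in aerocytes. The differences themselves moved less: with a mouse left out, Psmc2 in gCap cells ran from -0.22 to -0.17, Psmc4 in gCap cells from -0.20 to -0.16 and Psmc4 in adventitial fibroblasts from -0.35 to -0.29. The Wilcoxon test over single cells, which treats the cells of a mouse as independent, gave 64 lower and 2 higher pairs, where 3.6% of all pairs were lower and 4.96% higher by that test.

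**Figure D3:**
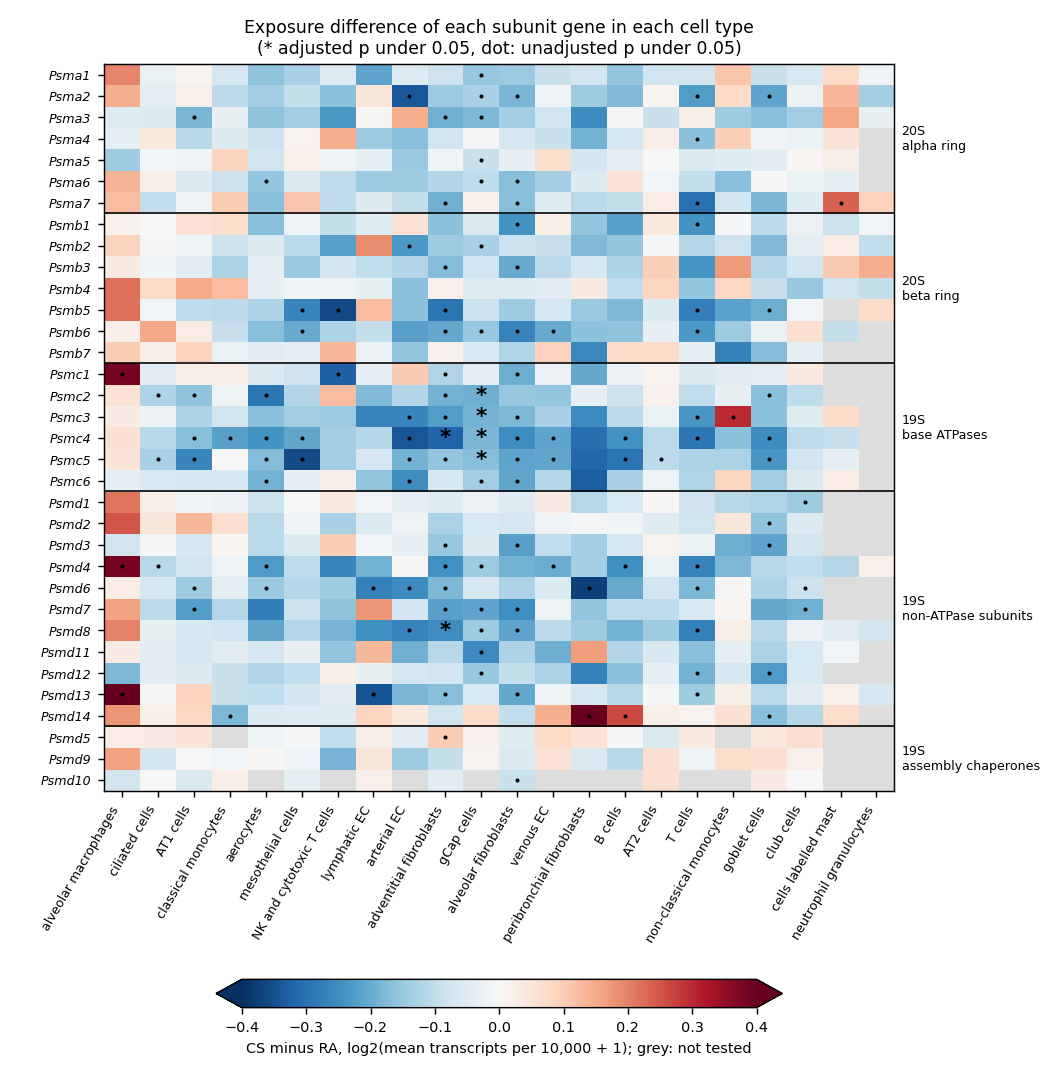
Difference of CS from RA mice (colour, log2 of the mean transcripts per 10,000 plus 1) for 34 tested members (rows, grouped by role) in 22 cell types (columns, ordered by summed level); stars mark an adjusted p under 0.05 and dots an unadjusted p under 0.05, grey was not tested. The 6 stars are all blue (lower in CS), 5 of them among the base ATPases, and the column of alveolar macrophages is mostly red (27 of 34 positive).

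gCap cells, a capillary type beside the aerocytes, held 4 of the 6 calls. All 4 were in ATPases of the 19S base, the ring that unfolds substrates. Psmc2 was at 0.568, 0.641, 0.635 and 0.563 transcripts per 10,000 in CS mice 1 to 4, and at 0.915, 0.836, 0.726 and 0.857 in RA mice 1 to 4. The groups did not overlap, and the CS mean was 0.722 times that of RA mice (log2 difference -0.19 ± 0.04 SE, adjusted p = 0.0296, limma). Psmc4 was at 0.575, 0.566, 0.546 and 0.483 in CS mice and at 0.791, 0.789, 0.688 and 0.729 in RA mice. It fell to 0.724 times the RA mean (-0.18 ± 0.04, adjusted p = 0.0286, limma), again with no overlap. Psmc3 was at 0.624, 0.818, 0.743 and 0.636 in CS mice and at 1.03, 0.984, 0.892 and 0.871 in RA mice, a ratio of 0.747 (-0.19 ± 0.05, adjusted p = 0.0431, limma). Psmc5 was at 0.491, 0.599, 0.490 and 0.409 in CS mice and at 0.756, 0.718, 0.655 and 0.610 in RA mice, a ratio of 0.726 (-0.17 ± 0.05, adjusted p = 0.0457, limma). In both genes the highest CS mouse was CS mouse 2 and the lowest RA mouse was RA mouse 4, and the groups came close without overlapping. All 6 base ATPases had negative differences in these cells, with a median of -0.18.

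The other members in gCap cells did not pass by limma. The most negative difference was that of Psmd11, a lid subunit, at 0.854, 1.09, 1.04 and 1.09 transcripts per 10,000 in CS mice 1 to 4 and 1.96, 1.26, 1.19 and 1.29 in RA mice 1 to 4 (-0.26 ± 0.09, adjusted p = 0.0895, limma). RA mouse 1 stood far above the other RA mice there, and the groups did not overlap. Of 33 tested, 29 were negative and 17 had an unadjusted p under 0.05 in the lower direction, where 15.0% of all 6556 genes did. The calls were 4 of 33, against 3.97% of all genes called lower in these cells. CS mice lay wholly below RA mice in 14 members, against 11.0% of all genes. The median difference was -0.09. The catalytic subunits Psmb5 and Psmb7 had differences of -0.09 (adjusted p = 0.164, limma) and -0.06 (adjusted p = 0.250, limma) that missed the threshold. For Psmb6, the other catalytic subunit, the difference over single cells pooled within groups was -0.18, against -0.10 for Psmb5 and -0.07 for Psmb7. Pooling weights each mouse by its cells, and RA mouse 1 gave 2075 of 5176 RA cells, so these values are not differences between mice. Psmb6 did not pass by limma, and its difference by mouse is not reported here. The summed level was 27.6, 29.8, 29.2 and 26.5 in CS mice 1 to 4 and 34.6, 32.5, 31.5 and 32.3 in RA mice 1 to 4, a ratio of means of 0.863. RA mouse 1 was the highest of the 8 mice in 18 of 33 members and CS mouse 4 the lowest in 12. Median transcripts per cell ran from 3482 to 4925 in CS and from 3024 to 5226 in RA mice, and overlapped, as did the mean mitochondrial share (0.709% to 1.52% and 0.870% to 1.24%).

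**Figure D4:**
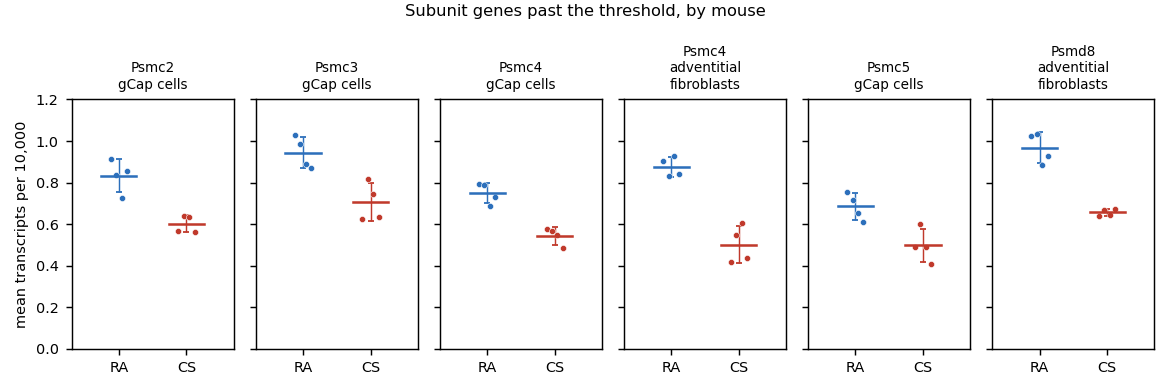
Mean transcripts per 10,000 (y axis, from 0) in each RA and CS mouse for the 6 pairs of a subunit gene and a cell type past an adjusted p of 0.05; points are mice, horizontal lines group means and whiskers SD (n = 4 per group). In every panel the 4 CS mice lie below the 4 RA mice; Psmc4 in adventitial fibroblasts has the lowest ratio of means, 0.573.

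Adventitial fibroblasts, the collagen-rich fibroblasts around vessels and airways, held the other 2 calls. Psmc4 was at 0.418, 0.549, 0.603 and 0.436 transcripts per 10,000 in CS mice 1 to 4 and at 0.902, 0.831, 0.927 and 0.840 in RA mice 1 to 4. This was the lowest ratio among the calls, 0.573 (-0.32 ± 0.06, adjusted p = 0.0236, limma). Psmd8, a subunit of the 19S lid, was at 0.639, 0.669, 0.645 and 0.672 in CS mice and at 1.03, 1.03, 0.886 and 0.926 in RA mice, a ratio of 0.678 (-0.25 ± 0.06, adjusted p = 0.0402, limma). The CS mice were close together and lay below every RA mouse. Of 34 members, 31 were negative and 16 had an unadjusted p under 0.05 as lower (9.54% of all genes did); the 2 calls compare with 1.19% of all genes called lower, and 0 members were called higher (1.91% of all genes). The summed level was 24.8 to 29.8 in CS and 31.5 to 35.3 in RA mice.

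Alveolar fibroblasts, which support the alveolar wall, had the same direction in every member. All 34 differences were negative, 16 with an unadjusted p under 0.05 (11.1% of all genes were lower at that p). By limma 0 passed the adjusted threshold (0.672% of all genes were called lower and 0.696% higher), with a lowest adjusted p of 0.0698 for Psmc4, and by the Wilcoxon test over cells 12 did (7.11% of all genes were lower). Psmc4 was at 0.528, 0.529, 0.701 and 0.470 in CS mice and at 0.967, 0.806, 0.775 and 0.841 in RA mice, so that the groups did not overlap. Psmb6 had the most negative difference, -0.27 (adjusted p = 0.114, limma), from a mean of 1.69 ± 0.275 in RA to 1.23 ± 0.124 in CS mice. The median over members was -0.15, and the summed level was 24.98 to 28.4 in CS and 30.1 to 37.2 in RA mice. RA mouse 1 was the highest in 21 of 34 members, and without it the median was -0.12.

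The summed level of CS mice also lay wholly below that of RA mice in T cells (23.1 to 27.1 against 27.5 to 35.1), arterial EC (25.9 to 31.6 against 31.8 to 35.2), mesothelial cells (30.0 to 34.1 against 35.2 to 38.1) and NK and cytotoxic T cells (29.4 to 31.9 against 33.4 to 38.7). These ranges rest on 3 CS mice in mesothelial cells and on 3 RA mice in NK and cytotoxic T cells. In T cells RA mouse 1, with 74 cells, was the highest of the 8 mice in 20 of 33 members, and the other RA mice were at summed levels of 27.5 to 31.8; the median of the members was -0.12 and, without RA mouse 1, -0.11. The dissociation list was also wholly lower in T cells, at 31.3 to 38.6 in CS and 42.95 to 56.1 in RA mice, and the cytosolic chaperone list was wholly lower in mesothelial cells, at 30.7 to 47.1 against 48.2 to 52.3. In NK and cytotoxic T cells the summed immunoproteasome genes were wholly lower, at 3.57 to 4.22 against 4.99 to 6.20. The part of these lists in the result was not tested. No single member passed in these 4 types by limma (0 pairs), with 13, 8, 4 and 2 lower at an unadjusted p under 0.05, against 10.5%, 6.81%, 6.62% and 4.75% of all genes. By the Wilcoxon test over cells, 5, 1, 2 and 0 members were lower there, against 4.04%, 1.15%, 4.47% and 0.15% of all genes. In T cells and in NK and cytotoxic T cells 0 of 6364 and 0 of 6019 genes were called in either direction, so the absence of a call there is not particular to the members. Of all genes, 0.328% were called lower and 0.341% higher in arterial EC and 0.234% and 0.072% in mesothelial cells. Psmc5 in mesothelial cells came closest among them, at 0.863, 0.980 and 0.804 in CS mice 2 to 4 and 1.57, 1.53, 1.19 and 1.37 in RA mice 1 to 4 (adjusted p = 0.0803, limma). In aerocytes 32 of 33 members were negative, with a median of -0.12 and 0 calls by limma (0.989% of all genes lower, 0.974% higher; 7 members lower at an unadjusted p under 0.05, against 10.9% of all genes, and 17 by the Wilcoxon test over cells, against 11.1%). RA mouse 1 was the highest mouse in 30 of these 33, at a summed level of 49.2 against 32.7 to 37.0 in the other RA mice, and without it the median was -0.06. The cytosolic chaperone list was wholly lower in aerocytes too, at 24.1 to 27.9 in CS and 39.6 to 60.98 in RA mice, with 7 of 16 genes lower by limma, and its part in the result was not tested. AT2 cells showed little difference, with summed levels of 26.4 to 28.3 in CS and 26.6 to 29.4 in RA mice and a median of -0.01.

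By role, the base ATPases leaned furthest to lower values. Over the 22 types, 106 of 124 pairs of an ATPase and a type were negative, with a median of -0.12, and 42 had an unadjusted p under 0.05 as lower; of all gene and type pairs 45.8% were negative and 6.3% were lower at that p. The other 19S subunits had 182 of 228 negative with a median of -0.08, the beta ring 112 of 150 with -0.08, and the alpha ring 115 of 151 with -0.07. The assembly chaperones had 22 of 49 negative, with a median of 0.00. These differences between roles were not tested. The summed level of the 6 ATPases was wholly lower in CS mice in 11 of 22 types, where the sum of all members was in 7. These sums rest on the same values as the pairs above, and all types come from the same 8 mice. No share for sums of other genes was computed to set beside these counts. Among the 11 types, mesothelial cells had 3 CS mice and peribronchial fibroblasts 3 mice in each group.

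Gene by gene, Psmc4 was negative in 20 of 21 types and wholly lower in CS mice in 10 of them, with a median of -0.21; of all gene and type pairs, 4.67% were wholly lower. Psmc5 was negative in 19 of 21 types (wholly lower in 9), and Psmd6, a lid subunit, in 18 of 20 (wholly lower in 9). Psmb6 was negative in 17 of 21, with a median of -0.14, and Psmb5 in 18 of 21, with a median of -0.12, while Psmb7 was negative in 12 of 20, with a median of -0.03. Psmd14, the deubiquitinase of the lid, and Psmd5 did not share this direction, with 8 of 21 and 7 of 18 negative and medians of 0.02 and 0.03. Of all gene and type pairs 45.8% were negative, so these 2 genes lay nearer to all genes. At an unadjusted p under 0.05 Psmd14 was lower in 2 types and higher in 2, and Psmd5 was lower in 0 and higher in 1.

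Alveolar macrophages, the resident phagocytes of the air space, had the highest median difference of the 22 types. Of 34 members, 27 were positive, 3 with an unadjusted p under 0.05 as higher (5.12% of all genes were) and 0 past the adjusted threshold by limma (0.238% of all genes were called higher and 0.291% lower) or by the Wilcoxon test over cells (0.384% of all genes were higher and 1.44% lower). Psmd13, a lid subunit, was at 2.24, 2.55, 2.60 and 1.83 transcripts per 10,000 in CS mice 1 to 4 and at 1.36, 1.28, 1.64 and 1.18 in RA mice 1 to 4. The groups did not overlap (ratio 1.69, log2 difference 0.48 ± 0.14 SE, adjusted p = 0.132, limma). Psmc1 was at 0.855 to 1.64 in CS and at 0.437 to 0.753 in RA mice, also without overlap (0.38, adjusted p = 0.272, limma). The values rest on 31 to 112 cells per mouse; median transcripts per cell ran from 3252 to 9325 in CS and from 5082 to 9917 in RA mice, and the mean mitochondrial share from 1.403% to 2.54% and from 1.195% to 1.47%. Their part in the result was not tested.

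Whether the exposure difference in a type departed from that in the other types was tested as a difference of differences in the 17 types with all mice. It passed for 2 pairs, both as higher, with 12 to 34 members tested per type. Over all gene and type pairs, 0.259% passed as higher and 0.246% as lower, and the 2 pairs are read against these shares. The difference for Psmd13 in alveolar macrophages was higher by 0.58 ± 0.10 than in the other types (adjusted p = 0.0354, limma; 0.159% of all genes passed as higher there). For Psmb6 in ciliated cells it was higher by 0.26 ± 0.05 (adjusted p = 0.0433, limma; background 1.26%). Psmb6 in ciliated cells was itself at 2.61, 3.002, 3.01 and 2.76 in CS mice and at 2.96, 2.56, 2.40 and 2.001 in RA mice, which overlap (0.15 ± 0.08, adjusted p = 0.288, limma). With lane as a block Psmd13 passed (adjusted p = 0.0444, limma) and Psmb6 did not (adjusted p = 0.139, limma). With each mouse left out in turn, Psmd13 passed in 2 of 8 fits, without CS mouse 4 and without RA mouse 3, and Psmb6 in 1 of 8, without RA mouse 1. The differences ran from 0.55 to 0.65 for Psmd13 and from 0.22 to 0.30 for Psmb6 over these fits.

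The related genes were read from the same fits. Of 733 pairs of 37 genes and a type, 6 passed (0.819%, against 0.518% of all gene and type pairs), all lower in CS mice. Adrm1, the ubiquitin receptor of the 19S particle, was at 0.442 to 0.536 in CS and 0.582 to 0.772 in RA mice in gCap cells (-0.16 ± 0.04, adjusted p = 0.0432, limma). Ubb, a polyubiquitin gene that stress induces, passed in gCap cells, adventitial fibroblasts, AT1 cells and ciliated cells and was negative in 22 of 22 types, with a median of -0.45. In gCap cells Ubb was at 8.20 to 12.4 in CS and 15.3 to 17.5 in RA mice (-0.67 ± 0.13, adjusted p = 0.0268, limma). With lane as a block 1 pair passed, and with a mouse left out 1 to 7 pairs did.

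The remaining lists had no call by limma. Their counts are read against all gene and type pairs, of which 8.92% were higher and 6.3% lower at an unadjusted p under 0.05, and 4.96% higher and 3.6% lower by the Wilcoxon test over cells. For the immunoproteasome genes 0 of 64 pairs passed, with 28 negative, 5 higher and 4 lower at an unadjusted p under 0.05, and 10 higher and 4 lower by the Wilcoxon test over cells. Psmb9 in adventitial fibroblasts was at 0.263, 0.351, 1.62 and 0.369 in CS mice and at 0.180, 0.236, 0.241 and 0.153 in RA mice. CS mouse 3 was far above the other CS mice there, and the adjusted p was 0.219 by limma. Its summed immunoproteasome level also exceeded that of the other CS mice in most types. It was 6.31 against 3.01 to 3.43 in alveolar macrophages and 4.70 against 2.87 to 3.09 in T cells. CS mouse 3 was not the highest CS mouse in gCap cells, classical monocytes, alveolar fibroblasts, neutrophil granulocytes or cells labelled mast. Activators and the inhibitor Psmf1 had 0 of 102 pairs past the threshold (11 higher and 3 lower at an unadjusted p under 0.05; 6 higher and 0 lower by Wilcoxon). Within that list Psme4, the activator PA200, was positive in most types, with 1 of 21 negative and a median of 0.17. Assembly factors of the core had 0 of 70 (0 higher and 6 lower; 0 and 4 by Wilcoxon), among them Pomp in gCap cells at 1.60 to 2.05 in CS and 2.12 to 2.79 in RA mice (adjusted p = 0.0616, limma). The Nrf1 pathway had 0 of 105 (7 higher and 5 lower; 7 and 3 by Wilcoxon). Nfe2l1 itself overlapped between the groups in gCap cells, at 0.623 to 0.884 in CS and 0.684 to 0.791 in RA mice.

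Genes outside the ubiquitin and proteasome lists moved in the same cells. Their lists were chosen with earlier results of these data known, so the counts below describe these genes and do not test whether they move. In gCap cells 6 of 16 cytosolic chaperone genes were lower in CS mice, among them Hspa8 (-0.96) and Hsp90ab1 (-1.11); the summed level of the list was 24.0 to 45.8 in CS and 42.8 to 68.5 in RA mice. Of 12 genes of the dissociation response, immediate early genes that enzymatic digestion induces, 6 were lower, with a summed level of 57.4 to 85.6 in CS and 100.1 to 154.6 in RA mice. Of 6 clock output genes tested, 4 were higher in CS mice (6.28% of all genes were called higher in these cells), among them Dbp, with a summed level of 5.78 to 9.41 against 2.72 to 4.63. In adventitial fibroblasts 3 of 16 chaperones and 1 of 12 dissociation genes were lower and 4 of 9 clock genes were higher. In alveolar fibroblasts 0 of these genes and 0 of the 34 members passed by limma in either direction. The summed dissociation list there was 133.9 to 185.2 in CS and 141.5 to 184.9 in RA mice, and the clock list 10.1 to 16.0 against 2.85 to 9.34. Over all types, 270 of 339 pairs of a chaperone gene and a type were negative, and 179 of 262 of a dissociation gene. For clock genes 11 of 129 pairs were negative, and for the members 537 of 702. The part of these genes in the result for the members was not tested. Transcripts that can leak from other cells (Sftpc, Scgb1a1, Scgb3a2, Lyz2 and hemoglobins) had 0 of 75 pairs past the threshold by limma, with 16 higher and 1 lower at an unadjusted p under 0.05 and 4 higher and 3 lower by Wilcoxon. The 75 pairs include types that make these transcripts themselves, such as AT2 cells for Sftpc and club cells for Scgb1a1. In gCap cells the sum of these genes was 8.15 to 10.3 in CS and 8.22 to 18.9 in RA mice.

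**Figure D5:**
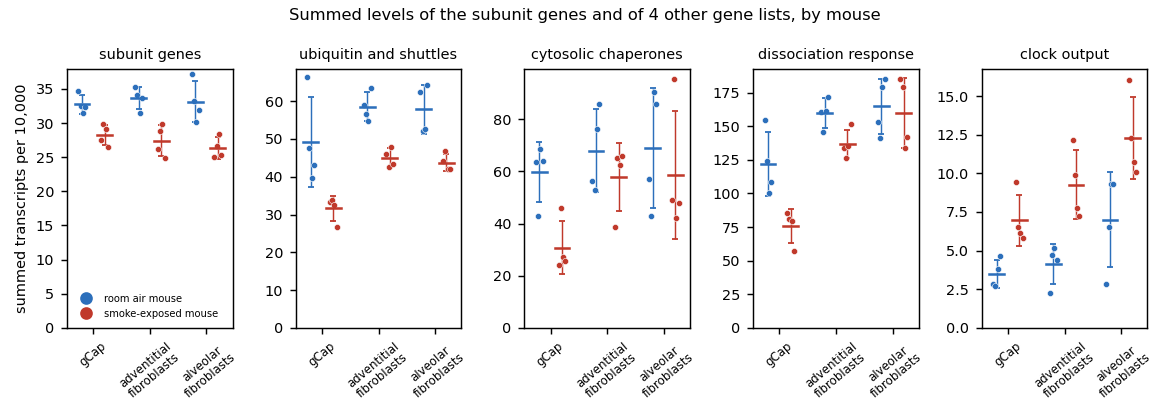
Summed transcripts per 10,000 (y axes, from 0, each with its own scale) of the subunit genes and of the ubiquitin and shuttle, cytosolic chaperone, dissociation response and clock output lists in gCap cells, adventitial and alveolar fibroblasts (x axis); points are mice, horizontal lines group means and whiskers SD (n = 4 per group). The subunit and ubiquitin lists separate the groups in all 3 types and so does the clock list, with CS mice higher. The chaperone list overlaps in all 3, and the dissociation list overlaps in both fibroblast types but not in gCap cells. The lists were chosen with earlier results of these data known.

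The annotation limits some members. By GENCODE M21 (build GRCm38) the 36 genes lie on 16 chromosomes, with at most 6 on any chromosome. An annotated gene of the deposited list overlaps 11 members on the opposite strand, among them Slc39a13 at Psmc3 and Sirt3 at Psmd13, and Gm21972 overlaps Psmd1 on the same strand; no source used here states that counting was stranded, so reads of such pairs may not be told apart. The list also holds 3 pseudogenes named after Psmb5 and Psmb6, with which these genes may share reads.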

How the data were processed

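Lung cells of 8 mice were profiled by 10x 3′ single-cell RNA-seq. The authors aligned reads with STAR 2.7.3a to GRCm38.p6 with GENCODE annotation and the reporter genes, and removed estimated free RNA with SoupX; the deposited values are expected counts of transcripts after that correction, of which 1.28% are whole numbers (within 1e-06), so no count model was used. The deposited cell table gives cell types and the percent of mitochondrial transcripts computed by the authors; 1628 of 41106 cells exceed 5%. Doublets were treated only through the label for multiplets (1025 cells). Cell numbers per group in the files are not those stated in the study, and the cause was not tested.

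Counts were divided by the cell total, multiplied by 10000 and averaged per mouse and type. Types with at least 20 cells in at least 3 mice per group were fitted with limma 3.58.1 (R 4.3.3; eBayes with trend) on log2(mean + 1), for genes seen in 10% or more of the CS cells or of the RA cells; p-values were adjusted by Benjamini-Hochberg over every gene tested in the type; a log2 difference on this scale understates the change of low genes. Each mouse is a separate animal. Lane was an alternative block. Types were compared within mice, and differences of differences were tested on the value of a type less the mean of the other types. The fits were tested on simulated data. Depth is unequal between types, and intervals are not given because corrected values are not counts.

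The members and lists were chosen with earlier results of these data known. Named were members past an adjusted p of 0.05, then those with the largest differences, the catalytic subunits, Psma8 and Psmb11, related genes, and 5 genes most like the summed level. Paaf1 and Per3 were not analysed here, and the values of some related genes are not reported here.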

Additional observations from a re-analysis of the deposited data

Results flagged for a closer look

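In AT1 cells the summed level of the subunit genes in RA mouse 1 was 44.4 transcripts per 10,000, against 37.2 to 37.7 in the other RA mice. In AT2 cells CS mouse 4 was at 26.4, against 28.0 to 28.3 in the other CS mice. Both lie farther from the rest of their group than Dixon's limit for 4 values, which chance passes in about 1 of 20 groups: 2 of 50 groups passed. The exposure difference departed from that of the other types for Psmd13 in alveolar macrophages (0.58 on the log2 scale, adjusted p = 0.0354, limma) and for Psmb6 in ciliated cells (0.26, adjusted p = 0.0433, limma). The background was 0.159% of all genes as higher in alveolar macrophages and 1.26% in ciliated cells. Psmd13 missed the threshold in 7 of 10 alternatives and Psmb6 in 8 of 10, lane as a block among them for Psmb6.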

How the results depend on the processing

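The count of subunit gene and type pairs lower in CS mice was 6, and it was 0 with lane as a block, 0 with no filter on genes, 12 with genes in at least 25% of cells, 10 with summed counts and 64 with the Wilcoxon test over single cells. It was within 1.5 times of 6 with a pseudocount of 0.1, centring on the median gene, at least 50 cells, no variance trend and, chosen after seeing the data, cells with at most 5% mitochondrial transcripts (6 to 8 pairs). Labelled sex as a term gave 4, but since the labels go against the transcripts in the CS libraries that term does not adjust for sex. Leaving out each mouse in turn gave 0 to 6. Pairs higher in CS mice were 0 in all of these except the Wilcoxon test, with 2. The members' median was negative in 19 to 21 of the types in each of these settings except the minimum of 50 cells, which leaves 15 types, 14 of them negative. Without RA mouse 1 the median in ciliated cells turned to 0.005, and without RA mouse 2 that in non-classical monocytes turned to 0.02. For cells labelled mast it was -0.01 when centred and -0.004 without RA mouse 4. None of the 6 called pairs changed direction in any of these settings (0 reversals). In each of these pairs every CS mouse lay below every RA mouse, so most of these settings could not have reversed it.

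Related pairs lower in CS mice, 6 in the reported fit, were 1 with lane as a block and 1 to 7 with a mouse left out; pairs higher, 0 in that fit, were 2 with summed counts and 0 to 1 with a mouse left out. The count of pairs whose exposure difference departed from the other types, 2 in the reported fit, was 1 with lane as a block, 1 with a pseudocount of 0.1 and 0 to 2 with a mouse left out, where the pairs were not always Psmd13 in alveolar macrophages and Psmb6 in ciliated cells: none of the 8 omissions kept both. Counts between cell types stayed within 141 to 193 higher and 129 to 185 lower. The replicate numbers of CS and RA mice are not shared in the labels, but each lane held 1 CS and 1 RA library, so the fit with lane as a block is the paired analysis. The causes of these changes were not tested. A fit with lane as a block or a mouse left out has fewer residual degrees of freedom, and the part of this in the changes was not tested either. Many levels lie near 1 transcript per 10,000 or below; how the number of cells limits what can be detected was not tested.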
